A study of Mus musculus with 96 samples.

Results

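The levels of 10 genes of the circadian clock were followed in 96 libraries, from the islets and the liver of each of 48 mice. The genes, Arntl, Clock, Npas2, Per1, Per2, Per3, Cry1, Nr1d1, Dbp and Ciart, were chosen by name, with earlier results of these data known. All 10 were found among the 21990 genes of the deposited table, of which 20155 have values. The mice were male C57BL/6N animals bought at 4 weeks of age, housed under 12 h of light a day with free access to food and given a chow diet with 13.5% fat (CD) or a high-fat diet with 60% fat (HFD). Islets, released by enzyme digestion, and liver were taken after 4, 8, 12, 16, 20 or 24 weeks of diet from 4 CD and 4 HFD mice each, which gives 24 groups of 4 libraries. No mouse carried a transgene or a deletion. Every week is a separate cohort, and the hour at which tissues were taken is not given in the sources used here. Week of diet, age and hour of collection thus cannot be told apart between the cohorts. Whether CD and HFD mice of a week were taken at the same hour is not known either. Differences by diet and by hour thus cannot be told apart within a week. Values are FPKM, fragments scaled by transcript length and by the mapped fragments of the library, so levels can be set side by side between genes, and differences are given on the log2(FPKM + 1) scale, which understates the change of a gene of few FPKM. A gene was called at a Benjamini-Hochberg adjusted p under 0.05 over all genes of a limma fit.

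The mammalian clock is a feedback loop of transcription with a period of about a day. ARNTL (also called BMAL1) pairs with CLOCK or its relative NPAS2 and turns on genes through E-box sequences, among them Per and Cry genes, whose proteins return to the nucleus and block that pair. Nr1d1 encodes the nuclear receptor REV-ERBα, which represses Arntl through ROR elements. Dbp encodes an output factor that acts through D-boxes, and Ciart (also called CHRONO) encodes a further repressor of the ARNTL pair. In liver the loop follows the hours of feeding, and in islets it takes part in the timing of insulin release.

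The genes lie on 7 chromosomes of GRCm38, by the coordinates deposited in the table. The activators are Arntl (chr7:113178470-113314126, + strand), Clock (chr5:76209864-76304979, - strand) and Npas2 (chr1:39193715-39363240, + strand). The repressors are Per1 (chr11:69095138-69109965, + strand), Per2 (chr1:91415977-91459402, - strand), Per3 (chr4:150997018-151044714, - strand), Cry1 (chr10:85131700-85185054, - strand) and Ciart (chr3:95878500-95882242, - strand). Nr1d1 (chr11:98767932-98775377, - strand) and Dbp (chr7:45705093-45710203, + strand) complete the set. Nr1d1 overlaps Thra by 1075 bases, Dbp overlaps Sphk2 by 741 bases and Per3 overlaps Uts2 by 4714 bases. The strandedness of the libraries is not given in the sources used here, so reads from the shared bases cannot be told apart. Uts2 was listed at a median of 0 FPKM in both tissues, while Thra had a median of 19.2 FPKM in islets and 6.84 in liver and Sphk2 one of 18.9 and 25.3.

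RefSeq promoter windows of GRCm38.p6, from 250 bases before to 50 after a start site, were at hand for 9 of the 10 genes in 13 windows, and were searched on both strands for the letters CACGTG (E-box), CACGTT (a variant called the E-prime box), TTATGTAA or TTACGTAA (D-box), TAGGTCA or TGGGTCA (ROR element) and TGACGTCA (cAMP response element). Of 32851 such windows of all genes, 7.15% held the E-box, 4.69% the E-prime box, 1.06% the D-box, 6.45% the ROR element and 1.79% the cAMP response element. Windows of 4 genes are printed 5′ to 3′ with the matches in capitals. Arntl and Per1 are the genes called between islets and liver of the same mouse. Each has another window, without a match, that is not printed. Ciart and Per3 had windows with 3 and 2 matches of the same kind.
Arntl, ROR element, chr7:113207261-113207560, + strand: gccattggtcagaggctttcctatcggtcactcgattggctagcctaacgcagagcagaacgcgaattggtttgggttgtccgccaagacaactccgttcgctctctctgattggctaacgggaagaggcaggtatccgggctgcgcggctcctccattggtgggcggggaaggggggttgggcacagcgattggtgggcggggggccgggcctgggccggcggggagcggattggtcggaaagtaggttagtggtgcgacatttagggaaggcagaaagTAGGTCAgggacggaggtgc
Per1, E-box, chr11:69098699-69098998, + strand: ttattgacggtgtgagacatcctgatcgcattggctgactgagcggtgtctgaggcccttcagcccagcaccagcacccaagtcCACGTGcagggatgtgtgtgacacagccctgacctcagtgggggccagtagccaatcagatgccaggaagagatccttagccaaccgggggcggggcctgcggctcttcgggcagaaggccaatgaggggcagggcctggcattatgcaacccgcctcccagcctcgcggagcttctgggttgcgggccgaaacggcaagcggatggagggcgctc
Ciart, E-boxes, chr3:95882179-95882478, - strand: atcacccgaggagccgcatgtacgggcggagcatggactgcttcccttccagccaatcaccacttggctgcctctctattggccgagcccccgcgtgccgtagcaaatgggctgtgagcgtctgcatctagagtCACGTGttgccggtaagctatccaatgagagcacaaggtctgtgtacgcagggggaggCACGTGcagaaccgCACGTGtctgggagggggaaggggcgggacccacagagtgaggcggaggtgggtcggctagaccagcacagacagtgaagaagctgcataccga
Per3, D-boxes, chr4:151044616-151044915, - strand: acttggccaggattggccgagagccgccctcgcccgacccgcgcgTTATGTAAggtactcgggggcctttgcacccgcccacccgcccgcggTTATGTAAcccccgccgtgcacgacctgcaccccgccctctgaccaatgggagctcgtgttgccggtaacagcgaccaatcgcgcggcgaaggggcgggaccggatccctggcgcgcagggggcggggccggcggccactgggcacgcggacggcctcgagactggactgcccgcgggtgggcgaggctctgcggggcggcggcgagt
The E-boxes of Ciart begin at bases -116, -58 and -44 from the start site, that of Per1 at -166, the D-boxes of Per3 at -205 and -158 and the ROR element of Arntl at 31. Cry1 held an E-box at -60 and an E-prime box at -79, and Nr1d1 an E-prime box at -28. The windows of Clock, Npas2 and Dbp held none of the 5 motifs, which says only that these letters are not in these windows. A match is a description of letters and not of a bound site.

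Dbp had the highest median level in both tissues and Npas2 the lowest. In 48 islet libraries, the median was 23.7 FPKM for Dbp (range 3.11 to 71.8), 18.4 for Nr1d1 (4.18 to 40.6), 13.2 for Per1 (7.72 to 26.9), 10.4 for Clock (4.14 to 13.99), 9.37 for Per2 (3.98 to 14.9), 6.21 for Cry1 (3.65 to 10.8), 4.87 for Per3 (1.77 to 10.3), 3.32 for Arntl (1.01 to 8.92), 2.87 for Ciart (0.72 to 7.65) and 0.63 for Npas2 (0.06 to 2.20). In 48 liver libraries, it was 57.9 FPKM for Dbp (0.43 to 174.1), 32.1 for Nr1d1 (3.82 to 79.2), 7.53 for Per1 (2.40 to 17.4), 5.98 for Per2 (1.59 to 12.7), 5.57 for Ciart (0.13 to 27.04), 4.76 for Per3 (0.27 to 10.1), 3.24 for Cry1 (1.63 to 10.96), 2.96 for Clock (0.78 to 5.66), 1.35 for Arntl (0.23 to 9.25) and 0.11 for Npas2 (0 to 3.01). The ranges of every pair of neighbours in both orders overlap. Arntl reached 1 FPKM in all 48 islet libraries and in 27 of the 48 liver libraries, and Npas2 in 10 islet and 2 liver libraries, so that Npas2 was tested in liver in no comparison of diets.

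**Figure D1:**
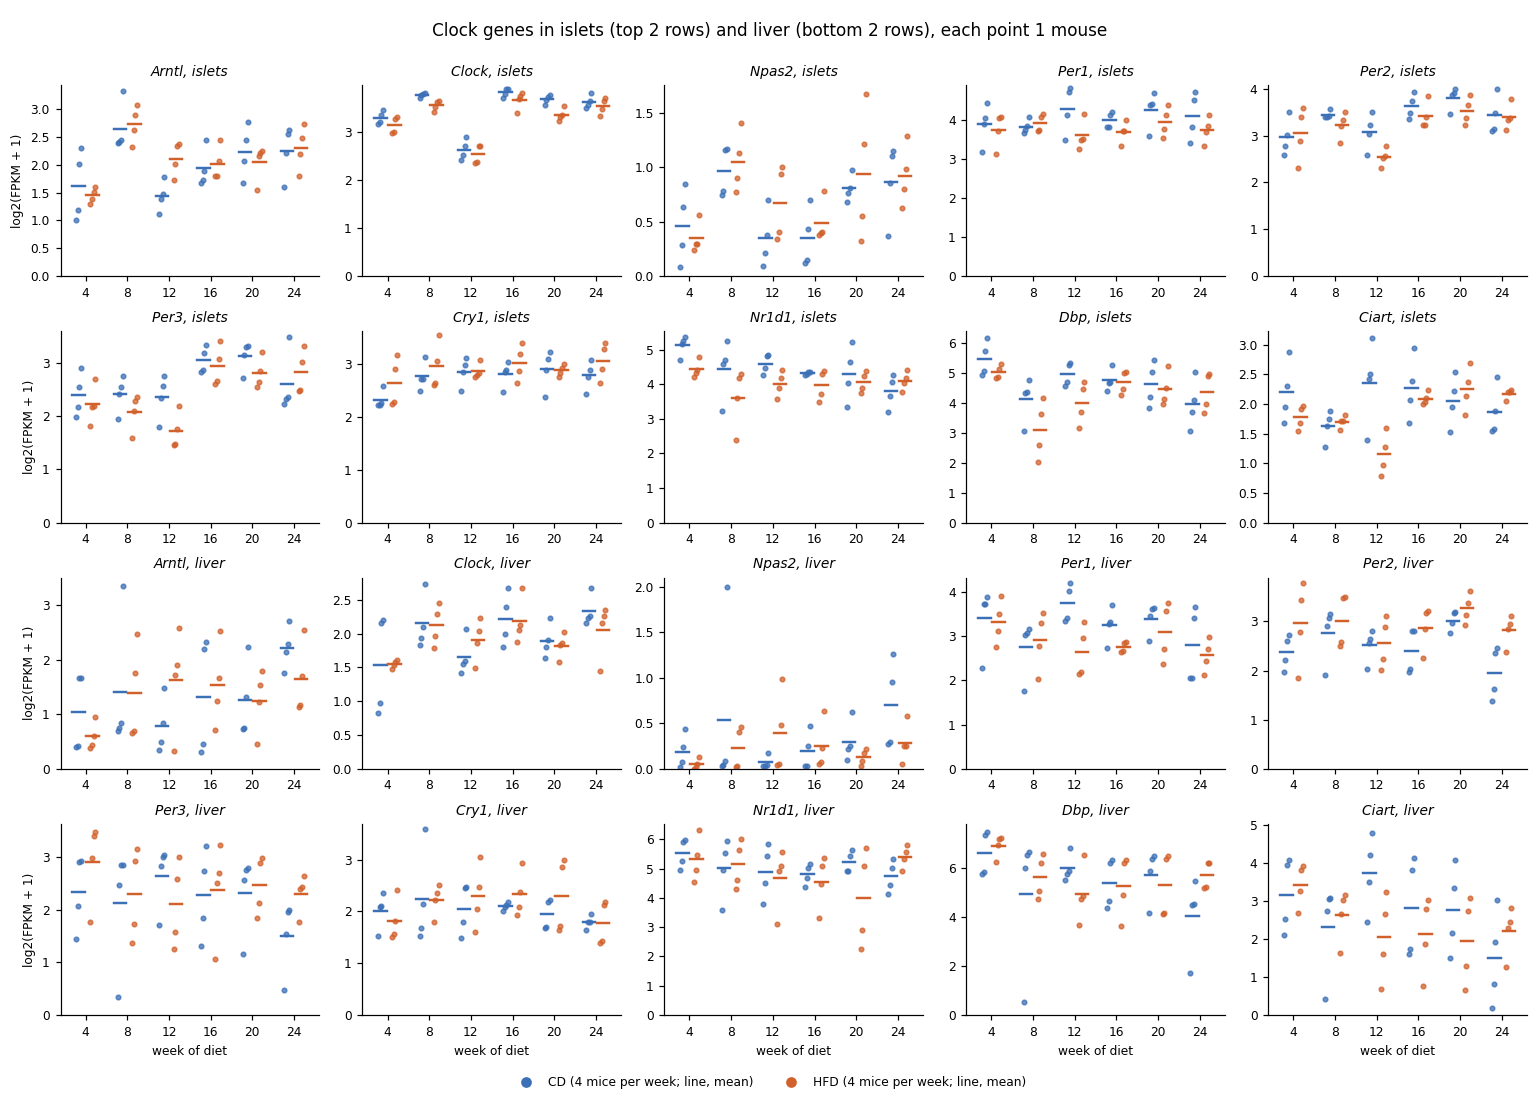
Level of each clock gene on the log2(FPKM + 1) scale by week of diet in islets (upper 2 rows) and liver (lower 2 rows), with 1 point per mouse, lines at the mean of 4 mice, CD in blue and HFD in orange. Diets overlap in nearly every panel and week, the 4 mice of a group spread widest in liver for Dbp and Ciart, and Clock in islets is lowest at week 12 in both diets.

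Between tissues, the comparison of the 24 CD mice asked which clock genes are more abundant in islets. All 10 were called in the limma fit, where 95.4% of the 13074 genes tested were called. The direction of 4 of the 10 changed under a rescaling, and for Nr1d1, Dbp and Ciart that rescaling raised islet values alone. Both tissues of a mouse entered this fit as separate libraries, and with the mouse as a replicate block 10 genes were called too. Clock differed most, by 1.51 (SE 0.09, adjusted p = 4.8e-20) on the log2 scale, with CD ranges of 4.37 to 13.99 FPKM in islets and 0.78 to 5.66 in liver. Per2 was higher in islets by 0.89, Per1 by 0.83, Cry1 by 0.72, Arntl by 0.68, Per3 by 0.47 and Npas2 by 0.30. Dbp was lower by 0.79 (-0.79 on the log2 scale, adjusted p = 0.027), Ciart by 0.66 (-0.66, adjusted p = 0.016) and Nr1d1 by 0.60 (-0.60, adjusted p = 0.0016). The insulin genes Ins1 and Ins2 took a median of 67.1% of the summed FPKM of an islet library (53.7% to 75.1%). With islet libraries rescaled by summed FPKM without these 2 genes, Nr1d1, Dbp and Ciart were higher in islets (0.91, 0.72 and 0.63). This step raises islet values, leaves liver values as they are and uses sums of FPKM rather than mapped fragments. A shift towards islets is thus built into it, and the reversals are not a result about these genes. The lowest estimates of Nr1d1, Dbp and Ciart among the alternatives were -1.33, -1.51 and -1.24. With median ratio scaling Per3 turned to -0.14 and 5 genes were called. Clock kept its direction and its call in each of the 7 alternatives, while the call of Dbp was lost without CD407 or CD608 (highest adjusted p = 0.066). Fewer cells of a type and less RNA per cell cannot be told apart in these bulk libraries. Markers of endocrine cells summed to between 588600 and 1009000 FPKM in islets and between 0 and 3734 in liver, and those of hepatocytes to between 36860 and 79540 in liver and between 250 and 1064 in islets.

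Mice of the same diet and week differed more in these genes than in the median gene, least so for Clock in islets. After the mean of each group was subtracted, the residual SD of Dbp in liver was 1.32 on the log2 scale, exceeded by 0.239% of the 10879 genes tested, and that of Ciart was 1.05, exceeded by 0.496%. Nr1d1 (0.86), Per3 (0.79), Arntl (0.79), Per1 (0.56), Cry1 (0.49), Per2 (0.48) and Clock (0.36) followed, beside a median of 0.18 over all genes. The SDs were smaller in islets, from 0.63 for Dbp, exceeded by 0.856% of 12378 genes, to 0.15 for Clock, exceeded by 38.9%, beside a median of 0.14. In CD livers at week 4, Arntl had 2.17, 0.32, 0.34 and 2.19 FPKM and Dbp 53.3, 161.7, 174.1 and 56.8 FPKM in the same 4 mice. The pair of mice with more Arntl thus had less Dbp, and the 2 pairs do not overlap. In HFD livers of that week, Arntl had 0.94, 0.31, 0.35 and 0.52 FPKM and Dbp 75.4, 148.4, 120.9 and 144.7 FPKM.

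Mouse CD205, a CD mouse of week 8, stood apart in both tissues. In liver, Arntl was at 9.25 FPKM in this mouse and at 0.62, 0.69 and 0.80 FPKM in the other CD mice of that week. Dbp was at 0.43 against 92.2, 98.8 and 62.5 FPKM, and Per3 at 0.27 against 6.18, 6.17 and 4.54 FPKM. These are the lowest Dbp and Per3 values of all 48 livers, and the Arntl value is the highest. In islets of the same mouse, Arntl was at 8.92 against 4.33, 4.43 and 4.23 FPKM, and Dbp at 7.33 against 19.8, 26.1 and 19.3 FPKM. No other islet library had as much Arntl, and only HFD211 and HFD212 of the same week had less Dbp. The HFD estimates of week 8 in liver rest on this mouse. Without it, all 8 genes tested there changed sign, among them Dbp (0.71 with and -0.76 without it), Per3 (0.17 and -0.42), Ciart (0.30 and -0.33) and Per2 (0.26 and -0.02), and 0 were called either way. Where a call over the 6 weeks changed without this mouse, both values are given.

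From mouse to mouse, Arntl and Npas2 varied in the opposite direction to Per3, Dbp and Ciart in both tissues. The following correlations are over 48 libraries of a tissue, as deviations from group means, share their libraries with each other and are a description without a test. Arntl and Dbp had Pearson's r of -0.89 in liver (Spearman's rho -0.90, r of -0.87 without the 2 libraries farthest from the median of Arntl) and -0.78 in islets (rho -0.80, -0.76 without 2). Arntl and Per3 had r of -0.88 in liver and -0.69 in islets, and Arntl and Ciart -0.83 and -0.63. Arntl and Npas2 varied together, with r of 0.79 in liver and 0.71 in islets. Arntl and Clock, which act as a pair, had r of 0.85 in liver and 0.33 in islets. Among the repressors, Per2 and Per3 had r of 0.86 in liver and 0.75 in islets.

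Nr1d1 and Cry1 varied in opposite directions in liver. There, Nr1d1 and Cry1 had r of -0.82 (rho -0.78, -0.79 without 2), Nr1d1 and Arntl -0.07, Cry1 and Arntl 0.36, Nr1d1 and Dbp 0.34 and Cry1 and Dbp -0.54. In islets, Nr1d1 had r of -0.50 with Cry1, -0.55 with Arntl and 0.74 with Dbp. The HFD livers of week 20 show the pair, with Nr1d1 at 50.96, 32.96, 6.50 and 3.82 FPKM and Cry1 at 2.13, 2.30, 6.90 and 6.21 FPKM in the same mice. The 2 livers with the least Nr1d1 were those with the most Cry1. In the same livers Arntl had 1.33, 0.37, 2.46 and 1.89 FPKM, with the most in the 2 livers of most Cry1.

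**Figure D2:**
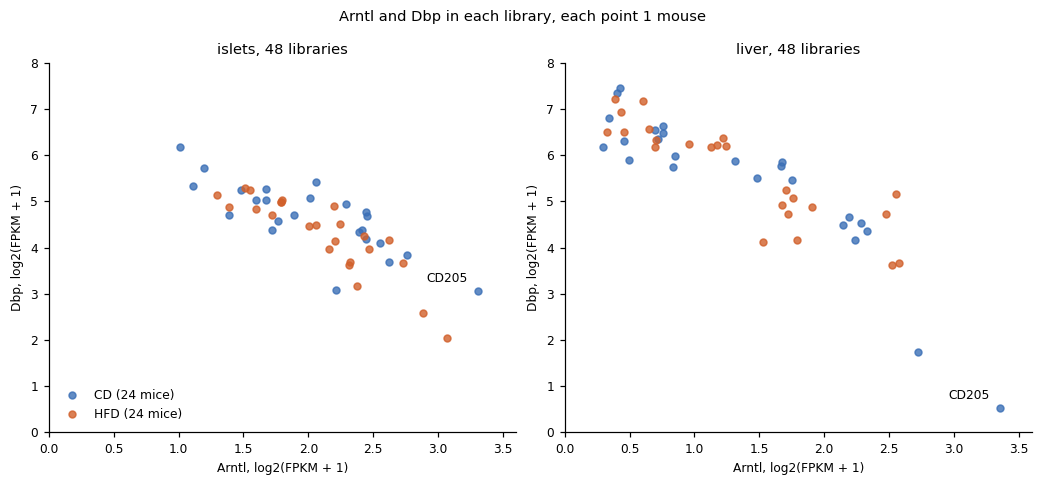
Dbp against Arntl, both on the log2(FPKM + 1) scale, in 48 islet libraries (left) and 48 liver libraries (right), with 1 point per mouse, CD in blue and HFD in orange. Dbp is lower where Arntl is higher in both tissues and both diets, and the liver of CD205 lies at the lower right end.

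**Figure D3:**
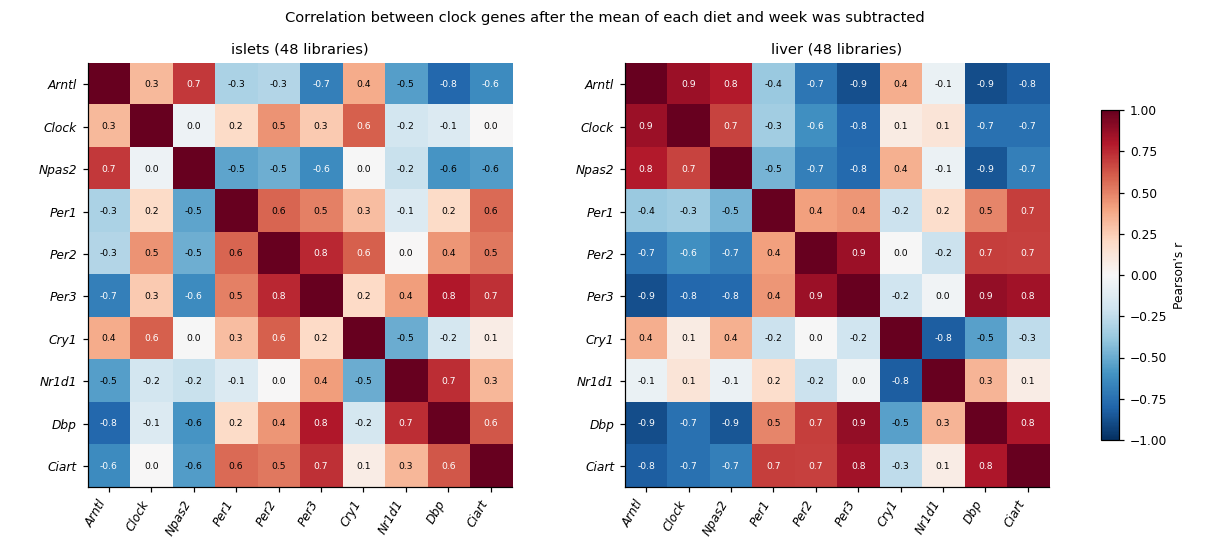
Pearson's r between each pair of clock genes in islets (left) and liver (right) over 48 libraries, computed on deviations from the mean of a library's group, from blue (-1) to red (1). Arntl, Npas2 and, in liver, Clock are red with each other and blue with Per3, Dbp and Ciart, and Cry1 and Nr1d1 are blue with each other.

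Genes outside the set with the most similar pattern were named as the 5 of highest Pearson's r over all 48 libraries of a tissue, among 11634 genes in islets and 10073 in liver with a mean of at least 1 FPKM. For Dbp in both tissues the first was Tef, of the same family of D-box factors, with r of 0.88 in islets and 0.93 in liver. It was followed by Nr1d2, Mpp3, Akr1c19 and Itpkb in islets (0.70 to 0.66) and by Slc2a5, Cry2, Pcsk4 and Ngef in liver (0.83 to 0.80). For Arntl in islets the first was Nfil3 (0.85), a repressor at D-boxes, before Ypel2, Lgalsl, Fam84a and Rhobtb1 (0.79 to 0.76). For Arntl in liver they were Chka (0.92), which encodes a choline kinase, Clpx (0.91), Asap2 (0.89), Dtx4 (0.87) and Ypel2 (0.85). Tef was the gene with the lowest r to Arntl in both tissues (-0.74 in islets and -0.91 in liver). For Per1 they were Cnot8, Cry2, Noct, Sox4 and Lrig1 in islets (0.80 to 0.71). These values hold differences between weeks and diets as well as between mice.

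Levels differed between weeks in islets. By an F test of limma, 7 of the 10 genes were called in CD islets, where 77.5% of 12378 genes were, and 7 in HFD islets, where 83.8% were, so neither share is above that of all genes. The 3 not called were Per1, Cry1 and Ciart in CD islets and Per1, Cry1 and Nr1d1 in HFD islets. Clock had the largest F of the set (38.8 in CD, adjusted p = 3.0e-13, and 32.8 in HFD, adjusted p = 2.5e-12). At week 12, Clock had 4.37, 5.54, 6.44 and 4.72 FPKM in CD and 4.21, 4.14, 5.53 and 5.57 FPKM in HFD islets. All 8 values are below the lowest of the 40 islet libraries of other weeks, 6.89 FPKM. Such a gap below all other weeks was seen in 403 (3.26%) of the 12378 genes, and Clock was the member of the set that had it. Week 12 islets were also those with the lowest CD mean of Arntl (1.75 FPKM, against 5.48 at week 8), Npas2 (0.29) and Per3 (4.31). In HFD they had the lowest mean of Per1 (11.5), Per2 (4.89), Per3 (2.39) and Ciart (1.28 FPKM). Ciart (4.59 FPKM) and Per1 (19.7 FPKM), in contrast, had their highest mean in CD islets at week 12.

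In liver, 1 of the 9 genes tested was called between weeks in CD mice (Clock, adjusted p = 0.028, a call lost without CD103, CD104 or CD606), where 55.0% of 10879 genes were, and 0 in HFD mice, where 50.2% were. No gene of the 9 had an unadjusted p under 0.05 between weeks in HFD liver. Without CD205, 3 genes were called between weeks in CD liver. The lowest and highest weekly means in CD liver were nonetheless far apart for Dbp (22.4 FPKM at week 24 and 111 at week 4), Ciart (2.72 at week 24 and 14.9 at week 12) and Arntl (0.815 at week 12 and 3.81 at week 24), within the wide spread between mice described above. No gene of the set was called for a difference of the HFD effect between weeks by the F test of diet and week, in islets (0 of 10, with 4.25% of all genes called) or in liver (0 of 9, 1.46%). The lowest p of both tests was that of Ciart in islets (adjusted p = 0.064 by limma), which was the 1 member with an unadjusted p under 0.05. With insulin left out of the islet totals, and without any 1 of 5 mice (CD304, CD403, CD507, CD601 or HFD313), 1 gene was called in islets.

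Within single weeks, few clock genes differed between diets. In islets, 2 of 55 pairs of a gene and a week were called (5.23% of the pairs of all genes), and the 4 HFD and 4 CD values did not overlap in 2 pairs (13.0%). In liver, 0 of 52 pairs were called (4.81%), and 1 pair did not overlap (12.3%). An unadjusted p under 0.05 was seen in 6 liver pairs, for which the share of all genes was not taken. Under limma without a variance trend, with median ratio scaling and in one fit of all 48 libraries, 1 liver pair was called.

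Week 12 in islets held the largest number of differences with an unadjusted p under 0.05, 6 of the 9 genes tested. The share of all genes under that p was not taken, so whether 6 of 9 is many cannot be judged. These genes vary together from mouse to mouse, so the 6 are not separate results, and 1 passed the adjustment. Arntl had 1.62, 1.79, 2.41 and 1.16 FPKM in CD and 2.29, 4.01, 4.20 and 3.02 FPKM in HFD islets. The HFD values are the higher ones, with 1 HFD mouse below the highest CD mouse, and Arntl rose by 0.67 (SE 0.15, adjusted p = 0.017). The call was lost without CD304 or CD306 (highest adjusted p = 0.065), without the filter on low values and in one fit of all 48 libraries (adjusted p = 0.11). Ciart had 1.63, 4.72, 4.36 and 7.65 FPKM in CD and 2.01, 0.95, 0.72 and 1.43 FPKM in HFD islets, a difference of -1.21 (SE 0.39, adjusted p = 0.18). It was called without a variance trend (adjusted p = 0.024) and in one fit of all 48 libraries (0.0030). Per2, Per3, Nr1d1 and Dbp had estimates of -0.54, -0.64, -0.59 and -0.96 with adjusted p of 0.081, 0.21, 0.17 and 0.29. Arntl was the 1 member called that week, where 4.53% of all genes were. Of 11 acinar markers, 1 was called in the same libraries, lower in HFD (median of the 11, -1.60), and of 7 endocrine markers 5 were, 3 higher and 2 lower (median 0.25), and their part was not tested. Without CD304 or without HFD318 the count of called pairs of a gene and a single week in islets rose from 2 to 4.

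In liver, the pair without overlap was Per1 at week 12. Per1, which is also a target of glucocorticoid and cAMP signals, had 9.67, 9.19, 15.3 and 17.4 FPKM in CD and 6.77, 3.52, 3.42 and 8.93 FPKM in HFD liver. All 4 HFD values are below all 4 CD values. The difference was -1.10 (SE 0.31, adjusted p = 0.056), where 10.6% of all genes were called. It was called with median ratio scaling (adjusted p = 0.046), without a variance trend (0.045) and in one fit (0.048), and without CD304 or HFD318, and missed the threshold in the other alternatives. Ciart in the same livers had 10.45, 4.51, 17.6 and 27.04 FPKM in CD and 8.41, 0.60, 2.06 and 5.32 FPKM in HFD, a difference of -1.71 (SE 0.70, adjusted p = 0.15). Of 4 stromal markers, 3 were called higher in these HFD livers (median of the 4, 1.05), and their part was not tested.

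The other islet pair called was Clock at week 20, with 12.6, 12.4, 11.7 and 10.9 FPKM in CD and 10.7, 9.26, 8.37 and 8.92 FPKM in HFD. The 2 groups do not overlap, and Clock fell by 0.33 (SE 0.08, adjusted p = 0.047), where 4.74% of all genes were called. The call was lost when any of 7 of the 8 mice was left out, that is each of them but HFD511, with adjusted p up to 0.14, and also with median ratio scaling (0.066), without the filter on low values (0.058) and without a variance trend (0.051). In the same islets, 3 of 3 erythrocyte markers were higher in HFD (median 1.24), and 3 of 7 endocrine markers were called, 1 higher and 2 lower (median -0.13), and their part was not tested. At week 8, Clock in islets also had all 4 HFD values (11.6, 10.5, 9.76 and 11.3 FPKM) below all 4 CD values (12.03, 13.1, 12.6 and 12.98 FPKM), with an adjusted p of 0.079. Its difference was -0.22, beside a median of -0.11 over all genes of that week, and 543 of the 613 genes called were lower.

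Over the 6 weeks, the mean effect of HFD was tested in one fit of the 48 libraries of a tissue. In islets, 2 of the 10 genes were called, both lower (38.6% of 12378 genes were called, 22.0% lower). Clock had a lowest, median and highest value of 4.37, 11.7 and 13.99 FPKM in 24 CD and 4.14, 9.38 and 13.01 FPKM in 24 HFD islets, and fell by 0.18 (SE 0.04, adjusted p = 0.00099). Nr1d1 had 8.22, 20.3 and 40.6 FPKM in CD and 4.18, 17.3 and 26.5 FPKM in HFD islets, and fell by 0.40 (SE 0.15, adjusted p = 0.029). The estimate of Clock was negative in each of the 6 weeks, while that of Nr1d1 was negative up to week 20 and positive at week 24 (0.31, adjusted p = 0.54), when 6 of the 9 genes tested had positive estimates (median 0.22). Both calls were lost when islet libraries were scaled by summed FPKM without the insulin genes (adjusted p = 0.076 and 0.071). Cry1 was then called higher (0.26, adjusted p = 0.034). This scaling also moved the median difference of all genes in single weeks. It went from 0.01 to 0.27 at week 12 and from 0.01 to 0.19 at week 16. It went from -0.11 to -0.13 at week 8 and from -0.02 to -0.09 at week 20. Whether the changed calls go beyond such shifts was not tested. The insulin genes took a median of 65.2% of the summed FPKM in CD and 69.4% in HFD islets. The summed level of acinar markers ranged from 4373 to 104900 FPKM in CD islets and from 3298 to 40090 in HFD islets, and 4 of 11 were lower in HFD (median difference of the 11, -0.49). That of erythrocyte markers ranged from 53.9 to 227.1 FPKM in CD islets and from 63.3 to 674.8 in HFD islets, and 3 of 3 were higher (median 0.75). Of 7 endocrine markers, 3 were higher and 2 lower (median -0.04). Their part in these results was not tested. Dbp (-0.38), Per1 (-0.28), Per3 (-0.23), Ciart (-0.21) and Per2 (-0.20) had negative estimates with adjusted p between 0.053 and 0.13. Cry1 (0.17), Npas2 (0.10) and Arntl (0.09) had positive ones with adjusted p between 0.13 and 0.56. With the levels of Arntl and Dbp of the same library as covariates, an alternative chosen after the data were seen, Nr1d1 had -0.16 (adjusted p = 0.26) and Clock kept its call. Single mice moved the other calls. Without CD304, a CD mouse of week 12 with low Per1, Per2, Per3 and Ciart in islets, 6 genes were called, these 4 with Clock and Nr1d1 (Per1 -0.33, Per2 -0.22, Per3 -0.26 and Ciart -0.26). Without HFD113, 4 were called, Per1 and Per2 beside Clock and Nr1d1. Dbp was called without CD205 (-0.44, adjusted p = 0.048) or HFD213. Per1 was called without any 1 of 12 mice.

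In liver, Per2 was the 1 of 9 genes called (42.6% of 10879 genes were called, 35.8% higher). Per2 had 1.59, 5.16 and 8.15 FPKM as lowest, median and highest value in 24 CD and 2.60, 6.64 and 12.7 FPKM in 24 HFD livers, and rose by 0.41 (SE 0.13, adjusted p = 0.012). Its estimate was positive in each of the 6 weeks, from 0.05 at week 12 to 0.87 at week 24, but without CD205 that of week 8 was -0.02 in place of 0.26. At week 24, Per2 had 4.09, 2.08, 1.59 and 4.51 FPKM in CD and 4.21, 6.15, 7.63 and 6.67 FPKM in HFD liver, where 1 HFD value lies below the highest CD value (adjusted p = 0.14). At week 4 it had 2.94, 5.05, 5.59 and 3.65 FPKM in CD and 2.60, 9.80, 12.7 and 5.93 FPKM in HFD liver. The mean effect was called without any single mouse (0.36 to 0.47 on the log2 scale, and 0.36 without CD205), and missed the threshold with median ratio scaling (0.31, adjusted p = 0.054). With the levels of Arntl and Dbp as covariates it was 0.40 (adjusted p = 0.00087). Per1 had an estimate of -0.34 in liver (adjusted p = 0.076), and was called without CD205 (-0.40, adjusted p = 0.033), CD106, CD605 or CD606, with median ratio scaling (-0.45, adjusted p = 0.022) and with the 2 covariates (-0.40, adjusted p = 0.021). In the same comparison, 4 of 4 stromal markers were higher in HFD liver (median 0.83, sums of 26.4 to 81.9 FPKM in CD and 45.7 to 128.6 in HFD) and 4 of 5 macrophage markers (median 0.66, sums of 28.8 to 94.4 and 38.5 to 189.4 FPKM). Of 5 endocrine islet markers tested there, 4 were called lower (median -0.99). Their sums ranged from 0.02 to 3734 FPKM in CD and from 0 to 411.6 in HFD livers. Of 8 hepatocyte markers, 3 were called lower (median -0.08). The part of these markers in the result for Per2 was not tested. The other 7 genes had estimates between -0.33 (Ciart) and 0.21 (Per3) with adjusted p between 0.39 and 0.998.

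The effect of HFD on Per2 differed between the tissues by -0.61 in islets minus liver (SE 0.17, limma fit of all 96 libraries, adjusted p = 0.0023), with estimates of -0.20 in islets and 0.41 in liver. It was the 1 member of 9 called, where 40.8% of 9936 genes were called. It was called without any single mouse (-0.67 to -0.555) and with the mouse as a replicate block (adjusted p = 0.0004). For Per1 the difference was 0.06 (adjusted p = 0.84), and for Dbp -0.55 (adjusted p = 0.296).

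**Figure D4:**
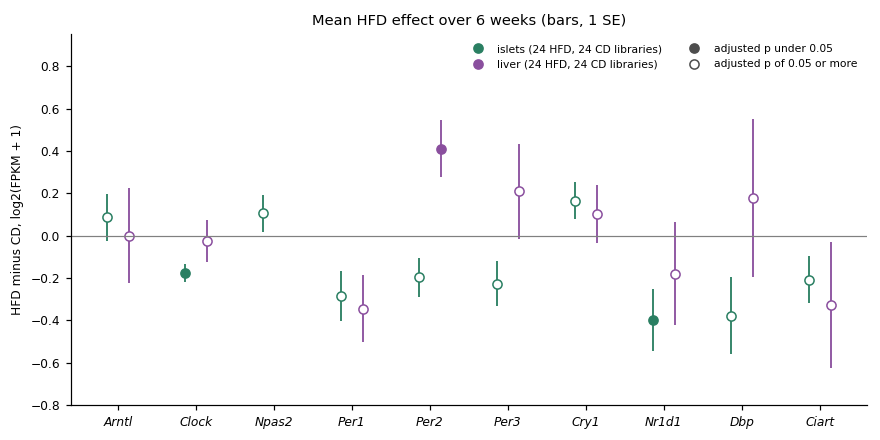
Mean effect of HFD over 6 weeks, HFD minus CD on the log2(FPKM + 1) scale with bars of 1 SE, in islets (green) and liver (purple), each from 24 HFD and 24 CD libraries, with filled points for an adjusted p under 0.05. Clock and Nr1d1 in islets lie below 0 and Per2 in liver above it. Npas2 was not tested in liver.

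Each mouse gave both tissues, so its deviation from its group mean in islets could be set against that in liver, by Pearson's r with a permutation test that exchanged mice within groups (100000 resamples, two-sided, adjusted over 9936 genes). Per1 had r of 0.76 (p = 1e-05, the smallest these permutations can give, adjusted p = 0.0047, rho 0.80 with p = 1e-05 and adjusted p = 0.0066) and Arntl 0.66 (p = 7e-05, adjusted p = 0.015, rho 0.66 with p = 8e-05 and adjusted p = 0.018). These 2 of 9 genes were called, where 1.07% of all genes were, and r was higher than that of Per1 in 0.091% and than that of Arntl in 0.272% of the genes, beside a median r of 0.06. Without the 2 mice farthest from the median in islets, r was 0.75 for Per1 and 0.59 for Arntl, the latter without CD106 and CD205. In CD islets of week 12, Per1 had 10.2, 16.4, 25.3 and 26.9 FPKM, and in liver of the same mice 9.67, 9.19, 15.3 and 17.4 FPKM. The 2 mice with the most Per1 in islets were those with the most in liver.

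Dbp (r = 0.52, p = 0.0020, adjusted p = 0.10) and Ciart (0.52, p = 0.0023, adjusted p = 0.11), by the same permutation test, came next and did not pass the adjustment, while with median ratio scaling Dbp did (0.54, adjusted p = 0.049). With that scaling 3.02% of all genes were called, against 1.07% in the main test, and the median r of all genes was 0.13 in place of 0.06. Per3 (0.40), Per2 (0.35), Cry1 (0.34), Clock (0.25) and Nr1d1 (0.23) had adjusted p between 0.24 and 0.63. Without CD601 and HFD112, r of Per2 was 0.14. Npas2, under the filter in liver, had r of 0.41 as a description. Within the 24 CD mice alone r was 0.76 for Per1 and 0.76 for Arntl, and within the 24 HFD mice alone 0.77 and 0.51, where the adjustment over all genes left 0 (0.00%) and 4 (0.0403%) genes and none of the set. Other lists moved between the tissues too. Of 8 genes that answer to temperature and heat shock, 6 were called (median r 0.71), of 10 immediate early genes 4 (0.49) and of 7 genes that answer to glucocorticoids 2 (0.405). Their part in the result for Per1 and Arntl was not tested.

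**Figure D5:**
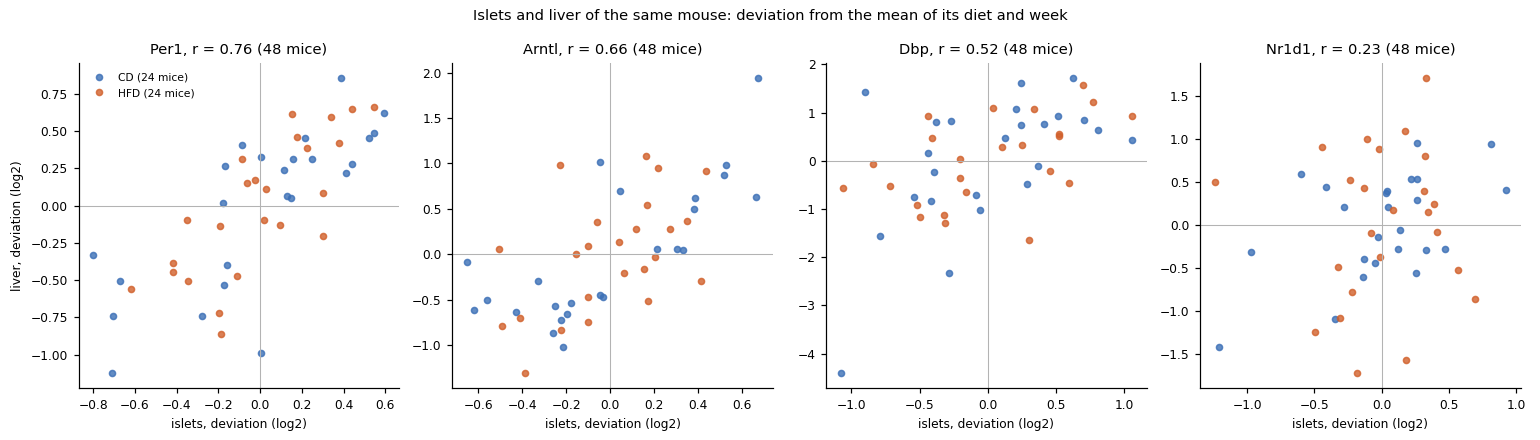
Deviation of each of 48 mice from the mean of its diet and week in islets (horizontal) and liver (vertical), in log2 units, for Per1, Arntl, Dbp and Nr1d1, with CD in blue and HFD in orange. Points rise along the diagonal for Per1 and Arntl, and CD205 lies at the upper right end for Arntl and at the lower left end for Dbp.

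Of 22 other genes of the clock and its output, 21 were tested in islets and 20 in liver. In islets 7 were called for the mean effect of HFD, where 38.6% of all genes were, 2 higher, among them Nfil3 (0.37, adjusted p = 0.0497), and 5 lower, which were Btrc, Noct, Timeless, Tipin and Hlf. The median difference was -0.04 over these 21 genes, -0.20 over the 10 genes of the set and -0.01 over all genes tested. In liver 4 were called, where 42.6% of all genes were, all higher, among them Btrc (0.25, adjusted p = 1.1e-06), Csnk1e, Fbxl21 and Timeless, beside medians of 0.10 over the 20, 0.00 over the 9 and 0.08 over all genes tested. Btrc and Timeless were called in opposite directions in islets (-0.25 and -0.15) and liver (0.25 and 0.12), with called differences between the tissues (-0.50, adjusted p = 1.6e-11, and -0.27, adjusted p = 4.1e-05). Btrc, part of a ubiquitin ligase that acts on PER proteins, was also called in single weeks, lower in islets at weeks 8 (-0.40) and 16 (-0.22) and higher in liver at weeks 8 (0.30) and 12 (0.44). The median of all genes in islets was -0.11 at week 8. At week 12 in islets, Nfil3 was higher by 1.22 (adjusted p = 0.041), and Hlf (-0.70), a D-box factor like Dbp, and Nr1d2 (-0.59), the closest relative of Nr1d1, were lower with adjusted p of 0.021 and 0.019. None of those tested was called for an interaction of diet and week in either tissue. Between tissues of the same mouse, Nfil3 was the 1 of 20 called (r = 0.45, p = 0.00051, adjusted p = 0.048).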

How the data were processed

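RNA-seq was measured in 96 libraries, 1 of islets and 1 of liver from each of 48 mice. The values used are FPKM per gene, deposited by the authors in 1 table with 2 decimals. The submitters' processing notes name HISAT2 2.0.4, Bowtie2 2.2.5, RSEM 1.1.12 and GRCm38.p5. Strandedness is not given in the sources used here. The table has no counts, so the depth behind a value is unknown and no counting interval is given. The 24 columns of group means and the 216 columns of the authors' own comparisons (log2 ratios, p-values and q-values) were not used.

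Groups were tissue, diet and week by the labels, with 4 separate mice each. A gene entered a fit when 4 or more of its libraries reached 1 FPKM. limma 3.58.1 (R 4.3.3) was run on log2(FPKM + 1) with its trend and robust options, with Benjamini-Hochberg adjustment over all genes of a fit. Weeks were fitted separately, and mean effects, differences between weeks and the interaction in 1 fit per tissue. Fits of both tissues treated the libraries of a mouse as separate, except in the alternative with the mouse as a block. For the alternative with insulin left out, islet libraries were scaled by their summed FPKM without Ins1 and Ins2. Correlations of the same mouse used Python 3.11.15, numpy 2.4.6, pandas 2.3.3 and numba 0.67.0, figures matplotlib 3.10.9 and promoters Biopython 1.88. Islets and liver are paired by the mouse identifier in the labels, and over the 9 clock genes tested the deviations of the same mouse had a median r of 0.40. Both procedures were run on simulated data. Genes were simulated as independent there, and the planted changes were larger than the mean effects of HFD reported here. These runs thus do not show how the procedures do at effects of this size.

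The 10 genes are described in every comparison, and other clock genes by count, with values for those called in 2 or more comparisons of a tissue; all lists and members were chosen with earlier results of these data known. Values of some genes outside the 10, and the genes most similar to Per1 in liver, are not reported here. Alternatives were a pseudocount of 0.1, no filter on low values, median ratio scaling, insulin left out of the islet totals, no variance trend, a fold change minimum, 1 fit of all libraries, the mouse as replicate block, each mouse left out and, chosen after the data were seen, Arntl and Dbp as covariates.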

Additional observations from a re-analysis of the deposited data

Results flagged for a closer look

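In 13 of 240 groups of 4 libraries (5.42%), the highest or lowest mouse lay apart from the other 3 by Dixon's criterion, which chance flags in about 1 in 20 groups. Mouse CD205 of week 8 accounts for 6 of them. Its Arntl stood at 8.92 FPKM in islets and 9.25 in liver, its Npas2 at 3.01, Per1 at 2.40 and Cry1 at 10.96 FPKM in liver, and its Per2 at 10.82 FPKM in islets. The Per2 value is a small step above the others, which lay between 9.47 and 9.66 FPKM. Without this mouse, the HFD estimate of week 8 in liver was -0.76 for Dbp and -0.42 for Per3, against 0.71 and 0.17 with it, and neither was called.

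The other 7 groups belong to 7 mice. In islets, Arntl was at 1.93 FPKM in HFD516 (week 20), Npas2 at 0.48 FPKM in HFD118 (week 4) and at 0.72 FPKM in HFD416 (week 16), Per3 at 10.33 FPKM in CD601 (week 24) and Cry1 at 5.02 FPKM in CD101 (week 4). In liver, Npas2 was at 0.13 FPKM in CD306 (week 12) and Per1 at 3.85 FPKM in CD106 (week 4).

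The mean effect of HFD on Per2 differed between islets and liver by -0.61 on the log2 scale in the limma test of that difference (adjusted p = 0.0023).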

How the results depend on the processing

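For pairs of a gene and a single week, the 2 calls in islets became 0 without a filter on low values. They became 1 with median ratio scaling and 0 with an added fold change minimum. The 0 in liver became 1 with median ratio scaling, without a variance trend and in 1 fit of all libraries. For the mean effect, the 2 calls in islets were lost and 1 other gene, Cry1, was called with insulin left out, and 0 were called in either tissue with the fold change minimum. The interaction in islets gave 1 call with insulin left out. Between tissues, 5 calls were left with median ratio scaling and 1 with the fold change minimum, and the difference of the HFD effect gave 0 with that minimum. Same-mouse calls were 0 in CD mice alone and 0 in HFD mice alone. Directions reversed for Per3 between tissues with median ratio scaling (-0.14), for Nr1d1 (0.91), Dbp (0.72) and Ciart (0.63) with insulin left out, and for the mean effect on Arntl in liver with median ratio scaling (-0.056). Leaving insulin out raises islet values alone, so a shift towards islets is built into that step. The cause of the other changes was not tested. With the mouse as replicate block, 10 genes were called between tissues and 1 for the difference of the HFD effect, and no call changed.

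With single mice left out, calls ranged from 1 to 4 over weeks in islets and 0 to 1 in liver, 2 to 6 for the mean effect in islets and 1 to 2 in liver, 5 to 8 between weeks in CD islets, 7 to 7 in HFD islets, 0 to 3 in CD liver and 0 to 1 in HFD liver, 0 to 1 for the interaction in islets and 0 to 0 in liver, 9 to 10 between tissues and 1 to 1 for the difference of the HFD effect. The mean effect in liver changed sign for Arntl (-0.059 to 0.11), Clock (-0.065 to 0.011) and Dbp (-0.067 without CD205, to 0.27). Depth, hour of collection and strandedness were not known, and each week holds 4 mice per diet.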

Other observations

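Genes that answer to temperature and heat shock were among the other lists with calls. In islets, 5 of 8 were called for the mean effect of HFD, 3 higher and 2 lower (median 0.18, all genes -0.01), where 38.6% of all genes were called. In liver, 6 of 8 were called, 4 higher and 2 lower (median 0.27, all genes 0.08), where 42.6% were. In liver, 4 of 4 stromal markers (median 0.83) and 4 of 5 macrophage markers (median 0.66) were higher in HFD by the same limma tests, where 35.8% of all genes were. Of 5 endocrine markers tested in liver, 4 were lower (median -0.99), and of 8 hepatocyte markers 3 were, where 6.78% of all genes were. Whether these shares differ from that of the clock genes was not tested.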
